A study of Mus musculus with 69 samples.

Results

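Mosaic gastruloids were made from 2 fluorescent clones of wild-type (WT) mouse embryonic stem (mES) cells, and the subject here is how far these clones differed in RNA at 72 h, after growing in the same aggregates since seeding. The members are the 6 libraries that the sample labels assign to WT + WT gastruloids at 72 h, 3 of sorted WT–mCherry cells and 3 of sorted WT–emiRFP cells, out of 69 libraries in the series. Gastruloids are aggregates of mES cells that break symmetry and begin to form the germ layers after a pulse of CHIR99021, a Wnt agonist. The study used them to ask when WT cells are outcompeted by neighbours that lack p53, and WT + WT gastruloids are its reference without that mutation. Both clones descend from E14Tg2A, a male line kept in serum and LIF. WT–mCherry is a single clone that carries an H2B–mCherry fusion under the EF1α promoter, and WT–emiRFP is a single clone that carries an H2B–emiRFP670 fusion under the CAG promoter. Both transgenes were integrated by piggyBac transposition. Equal numbers of both clones were aggregated and grown in N2B27 medium with CHIR99021 from 48 to 72 h, then dissociated and separated by fluorescence. A further comparison at 72 h used 6 libraries of WT + p53KO gastruloids, in which WT–mCherry cells grew beside p53KO–emiRFP, a daughter clone of WT–emiRFP with homozygous frameshifts in Trp53. Each reporter is represented by 1 clone, so clone, reporter, promoter and insertion sites cannot be told apart. Per the study, the sorted fractions were not re-analysed for purity.

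At 72 h a gastruloid is leaving pluripotency. Naive factors such as Esrrb, Klf2 and Zfp42 keep mES cells in a state resembling the early epiblast. Formative and primed genes such as Fgf5 and Otx2 follow, and under Wnt signalling T, Mixl1 and Eomes mark the primitive streak and nascent mesoderm. Imprinted genes are a separate class: DNA methylation laid down in the egg or sperm leaves each of them active mainly on the maternal or the paternal copy. These marks are inherited through cell division, and mES cell lines and subclones are known to gain or lose them in culture.

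Reads were counted for 55367 genes, and the 6 libraries held between 44049258 and 54328301 counted reads on 24647 to 26231 genes. Any pair of them had equal counts at 5.48 to 6.08% of genes, so no library was a copy of another. The mitochondrial share was 1.02, 1.49 and 1.09% in replicates 1, 2 and 3 of WT–mCherry and 0.791, 0.872 and 1.07% in those of WT–emiRFP. The streak marker T was at 40428, 37415 and 44979 normalized counts (counts divided by a median-of-ratios size factor) in WT–mCherry and at 58403, 45502 and 51586 in WT–emiRFP, so it was abundant in both sorted fractions. Trp53, the gene mutated in the daughter clone, was at 17073 ± 1260 in WT–mCherry and 15944 ± 1234 in WT–emiRFP (mean ± SD, n = 3; adjusted p = 0.51), against 1721 ± 180 in p53KO–emiRFP. Of markers of other cell types, 0 of 9 tested trophoblast genes passed the test, with a summed level of 4809 to 7815 in WT–mCherry and 6015 to 7436 in WT–emiRFP. In the extraembryonic endoderm list 1 of 10 tested genes, Gata4, passed, with sums of 3801 to 4539 and 4256 to 4532. The 5 tested Y-linked genes gave 0 calls. Over all tested genes 7.64% were called, so call counts in lists this short say little about these cell types.

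WT–mCherry and WT–emiRFP cells differed at many genes, but mostly by little. With edgeR's quasi-likelihood test and Benjamini-Hochberg adjustment over 17714 tested genes, 1354 genes (7.64%) passed an adjusted p of 0.05. Of these, 584 (3.3%) were higher in WT–mCherry and 770 (4.35%) were higher in WT–emiRFP. The median absolute log2 fold change among the called genes was 0.43, and 917 of them differed by less than 1.5-fold. The 128 genes that differed at least 2-fold were split unevenly, with 101 higher in WT–mCherry and 27 higher in WT–emiRFP. Imprinted genes and a few histone H2B genes lay at the extremes, as the plot of fold change against level shows. The count depended on the libraries: 339 genes passed without replicate 1, 505 without replicate 2 and 1308 without replicate 3. With the 6 libraries alone in the fit, 553 genes passed. With the replicate number as a block in the fit, 2865 passed, 1259 higher in WT–mCherry and 1606 in WT–emiRFP. The larger number of genes higher in WT–emiRFP did not hold in 3 of these fits, with 181 genes higher in WT–mCherry and 158 in WT–emiRFP without replicate 1, 259 and 246 without replicate 2, and 285 and 268 with the 6 libraries alone; without replicate 3 the numbers were 596 and 712. Fold changes below are WT–mCherry minus WT–emiRFP on the log2 scale with the standard error (SE) of the fit, so positive values are higher in WT–mCherry. A value in brackets after a gene is its log2 fold change, followed where given by its adjusted p.

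**Figure D1:**
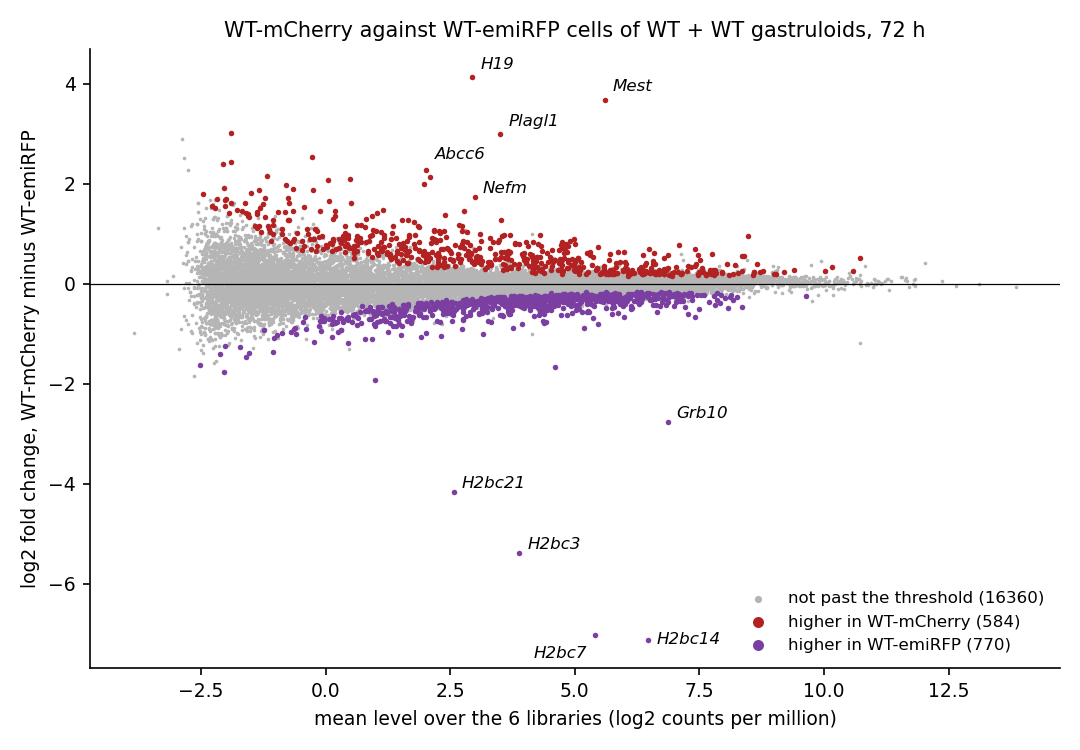
Each point is 1 of the 17714 tested genes, with its mean level over the 6 libraries in log2 CPM (counts scaled to library size) on the x axis and its log2 fold change, WT–mCherry minus WT–emiRFP, on the y axis. Red marks the 584 genes past the threshold and higher in WT–mCherry, purple the 770 higher in WT–emiRFP, and grey the other 16360; H19, Mest and Plagl1 stand apart at the top, and Grb10 and 4 H2b genes at the bottom.

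Imprinted genes held the largest differences between the clones outside the histone genes. Of 40 tested imprinted genes, 11 were higher in WT–mCherry and 2, Grb10 and H13, were higher in WT–emiRFP, so that 32.5% of the list was called beside 7.64% of all tested genes. The median log2 fold change of the list was 0.10 against −0.0062 over all tested genes. Without replicate 1, as without replicate 2, 9 were higher in WT–mCherry and 2 in WT–emiRFP. Mest encodes a hydrolase-like protein of mesodermal tissues and is expressed from the paternal copy. Plagl1 encodes a zinc finger transcription factor and is also paternally expressed, whereas Grb10, an adaptor that restrains signalling of growth factor receptors, is maternally expressed in most tissues. Their promoters are shown because these were the protein-coding members that separated the clones most. Each line holds the 250 bases upstream of a RefSeq start in GRCm38.p6, 5′ to 3′ on the strand of the gene, taking for each gene the start whose window holds the most CG dinucleotides. Capitals mark each CG, the dinucleotide at which DNA is methylated.
Mest chr6:30737800-30738049, plus strand: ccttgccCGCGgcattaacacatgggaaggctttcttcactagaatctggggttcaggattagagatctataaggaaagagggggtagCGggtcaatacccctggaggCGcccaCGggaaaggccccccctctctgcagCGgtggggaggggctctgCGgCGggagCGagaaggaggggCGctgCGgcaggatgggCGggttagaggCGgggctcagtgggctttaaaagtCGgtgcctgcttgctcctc
Plagl1 chr10:13090582-13090831, plus strand: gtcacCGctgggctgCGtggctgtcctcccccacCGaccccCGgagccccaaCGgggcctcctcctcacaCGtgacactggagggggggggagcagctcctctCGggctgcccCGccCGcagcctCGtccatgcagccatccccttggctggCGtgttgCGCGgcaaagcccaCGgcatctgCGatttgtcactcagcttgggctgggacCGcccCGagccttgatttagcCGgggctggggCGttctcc
Grb10 chr11:12037421-12037670, minus strand: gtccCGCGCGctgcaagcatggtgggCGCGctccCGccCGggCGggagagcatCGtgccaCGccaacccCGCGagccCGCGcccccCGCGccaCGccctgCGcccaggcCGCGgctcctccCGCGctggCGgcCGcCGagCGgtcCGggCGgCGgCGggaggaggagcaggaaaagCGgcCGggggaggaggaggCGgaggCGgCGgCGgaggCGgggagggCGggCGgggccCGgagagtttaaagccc
CG reads the same on both strands and was found 14 times in the Mest window, 19 times in that of Plagl1 and 40 times in that of Grb10. The median over 32851 promoter windows of this length was 6. At least as many were held by 29.4, 19.7 and 1.31% of these windows, respectively. Taking the window with the most CG favours a high rank, and another start of Mest held 7 and another of Grb10 held 8. These counts describe the sequence alone, and methylation was not measured in these libraries.

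H19, a maternally expressed non-coding RNA (chr7:142575529-142578143, GRCm38), was at 945, 774 and 591 normalized counts in replicates 1, 2 and 3 of WT–mCherry and at 31.7, 77.0 and 20.7 in those of WT–emiRFP (log2 fold change 4.12 ± 0.29, adjusted p = 1.3e-06). All 3 WT–mCherry libraries lay far above all 3 WT–emiRFP libraries, a 17.4-fold difference. Igf2, the paternally expressed neighbour of H19, averaged 15.2 in WT–mCherry and 15.4 in WT–emiRFP (adjusted p = 0.98). Mest (chr6:30723547-30748465) was at 4673, 4615 and 5094 in WT–mCherry and at 355, 442 and 324 in WT–emiRFP (log2 fold change 3.68 ± 0.10, adjusted p = 9.0e-12), and the replicates of each clone lay close together on either side of a 12.8-fold gap. Plagl1 (chr10:13060504-13131694) was at 1125, 999 and 1073 against 79.2, 142 and 179 (log2 fold change 2.99 ± 0.20, adjusted p = 5.3e-07). The lowest WT–mCherry library was again well above the highest WT–emiRFP library. Nnat, a paternally expressed gene for a small membrane proteolipid (chr2:157560078-157562522), was at 318, 318 and 356 against 68.3, 85.1 and 93.8 (log2 fold change 2.00 ± 0.15, adjusted p = 2.2e-06). Nap1l5, a paternally expressed gene related to nucleosome assembly proteins, was at 63.4, 62.4 and 74.5 against 13.4, 25.3 and 15.3 (log2 fold change 1.86 ± 0.23, adjusted p = 0.00021), without overlap.

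Grb10 (chr11:11930508-12038683) differed in the other direction. Its normalized counts were 1553, 1638 and 1611 in WT–mCherry and 10379, 10917 and 11362 in WT–emiRFP (log2 fold change −2.77 ± 0.06, adjusted p = 2.7e-13), 6.80-fold higher in WT–emiRFP, and the spread within either clone was small beside this gap. H13, a gene for a signal peptide peptidase, was at 2204, 2262 and 2364 in WT–mCherry and at 3659, 3257 and 3415 in WT–emiRFP (log2 fold change −0.60 ± 0.06, adjusted p = 2.9e-05). Mcts2, a paternally expressed retrogene that lies in an intron of H13, differed the opposite way, with 1359, 1264 and 1342 against 940.0, 820.4 and 767 (log2 fold change 0.65 ± 0.08, adjusted p = 0.00028). Each of these 3 genes separated the clones without overlap.

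Smaller differences were found at further paternally expressed genes. Zrsr1, a splicing factor retrogene, was at 774, 687 and 828 in WT–mCherry and 440.1, 421 and 392 in WT–emiRFP (log2 fold change 0.87 ± 0.09, adjusted p = 4.7e-05). Usp29, which encodes a ubiquitin protease and neighbours Peg3, was at 476, 411 and 502 against 254, 256 and 261 (log2 fold change 0.85 ± 0.11, adjusted p = 0.00041). Sfmbt2, a Polycomb-related gene, was at 3538, 3168 and 3362 against 1972, 2080 and 2622 (log2 fold change 0.59 ± 0.09, adjusted p = 0.001). In all 3 the libraries of the clones did not overlap, and all 3 passed whichever replicate was left out. Peg3, a zinc finger gene, was at 21311, 17393 and 23309 against 13781, 11977 and 16682 (log2 fold change 0.55 ± 0.15, adjusted p = 0.035), but its adjusted p was 0.21 without replicate 1 and 0.087 without replicate 2. Zdbf2 had a log2 fold change of 0.59 (adjusted p = 0.023) that likewise missed the threshold without replicate 1 (0.22) and without replicate 2 (0.15). Split by the copy known to be active, the list held 24 tested paternally expressed genes, of which 10 were higher in WT–mCherry and 0 in WT–emiRFP (3.3% and 4.35% of all tested genes), with a median log2 fold change of 0.27. It held 12 maternally expressed genes, of which 1 (H19) was higher in WT–mCherry and 2 in WT–emiRFP, with a median of −0.03, and 4 genes whose active copy varies, with 0 calls. This grouping was made after the values were seen, and the parental copies were not resolved in the counts.

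**Figure D2:**
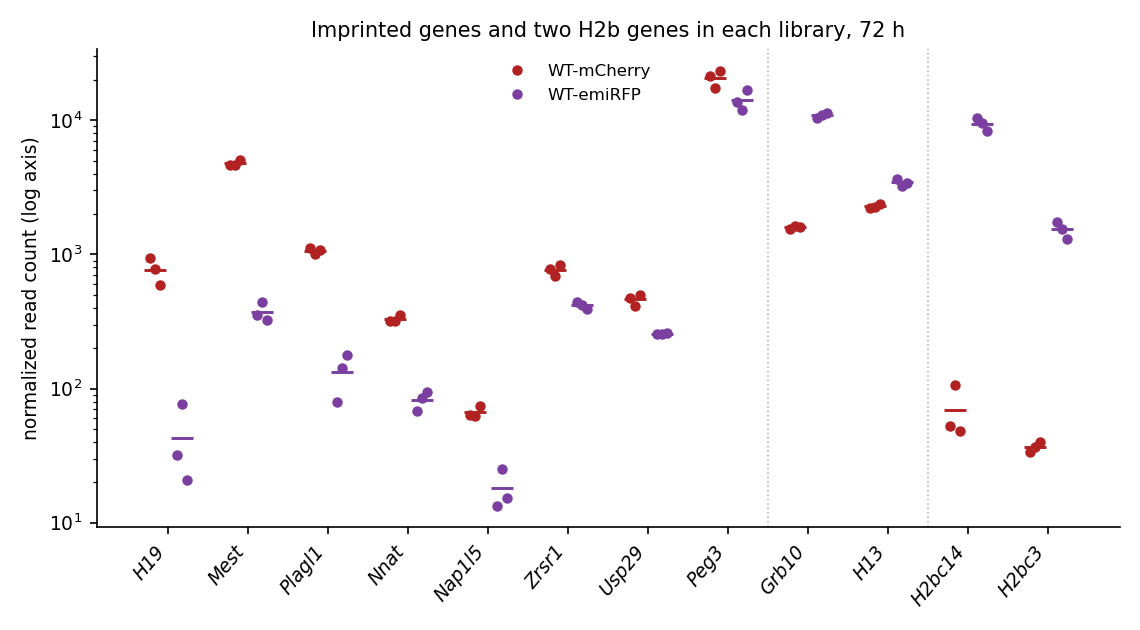
Normalized read count of 10 imprinted genes and 2 H2b genes in each of the 6 libraries at 72 h, on a log axis; each point is 1 library and each horizontal bar the mean of 3. The imprinted genes at the left are higher in WT–mCherry (red), while Grb10, H13, H2bc14 and H2bc3 at the right are higher in WT–emiRFP (purple), and no pair of point groups overlaps.

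The largest fold changes of all belonged to genes of histone H2B, a core protein of the nucleosome and the fusion partner of both reporters. The table held 21 H2b genes, 13 of which were tested, and 4 of these were higher in WT–emiRFP, beside 4.35% of all tested genes. H2bc14 (chr13:21722044-21722526) was at 52.5, 106 and 48.0 normalized counts in WT–mCherry and at 10386, 9596 and 8305 in WT–emiRFP (log2 fold change −7.12 ± 0.32, adjusted p = 3.9e-09), a 139-fold difference. H2bc7 (chr13:23573760-23574207) was at 17.8, 61.3 and 25.5 against 5233, 4451 and 3753 (log2 fold change −7.03 ± 0.29, adjusted p = 2.1e-09). Both genes were low in each WT–mCherry library and abundant in each WT–emiRFP library. H2bc3 was at 33.7, 36.8 and 39.8 against 1752, 1556 and 1295 (log2 fold change −5.38 ± 0.19, adjusted p = 2.9e-10), and H2bc21 at 28.7, 35.7 and 35.7 against 556, 749.5 and 485 (log2 fold change −4.16 ± 0.20, adjusted p = 9.8e-09). The p53KO–emiRFP daughter clone carried the same excess: H2bc14 averaged 7910 in it and 84.8 in the WT–mCherry cells beside it. Reads of an H2B transgene and of a near-identical H2b gene cannot be told apart in a gene count table, and their part in these values was not tested. The same 4 genes were the only ones in mES cells before aggregation with at least 200 normalized counts in one clone and a log2 difference of at least 5, all higher in WT–emiRFP. As a share of the level in WT–emiRFP, H2bc14 in WT–mCherry was 0.0729% in mES cells and 0.506, 1.10 and 0.577% in replicates 1, 2 and 3 at 72 h. The share of H2bc7 was 0.318% in mES cells and 0.341, 1.38 and 0.680% at 72 h, and that of H2bc21 was 3.11% and then 5.17, 4.76 and 7.36%. H2bc3 went from 2.65% to 1.92, 2.36 and 3.07%, so its shares at 72 h lay on both sides of that in mES cells.

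Outside these classes, the genes with the largest excess in WT–mCherry among those whose mean log2 CPM reached 1 were of mixed function. Abcc6, a transporter of the ABC family (chr7:45967555-46030302), was at 296, 403 and 362 in WT–mCherry and 75.6, 69.9 and 73.1 in WT–emiRFP (log2 fold change 2.28 ± 0.13, adjusted p = 7.6e-08). The X-linked Nxf3, related to the mRNA export factors, was at 436, 426 and 242 against 97.5, 91.2 and 64.3 (log2 fold change 2.12 ± 0.25, adjusted p = 0.00012). Nefm, the medium chain of neurofilaments, was at 669.8, 573 and 699.9 against 216, 206 and 161 (log2 fold change 1.74 ± 0.11, adjusted p = 2.2e-07). None of these 3 genes overlapped between the clones, and the lowest WT–mCherry value of Nefm was well above the highest of WT–emiRFP. Sohlh2, a transcription factor of germ cells, was at 625, 520.3 and 451 against 194, 224 and 168 (log2 fold change 1.44 ± 0.15, adjusted p = 4.2e-05). Pnma5, an X-linked gene of the paraneoplastic antigen family, was at 815, 886 and 880.5 against 359.7, 345 and 368 (log2 fold change 1.27 ± 0.09, adjusted p = 7.1e-07). Further genes named by the same rule were the pseudogene H2-M6-ps (1.42), the oocyte NLR gene Nlrp9b (1.37), Arl14epl (1.27) and the ribosomal protein paralogue Rpl39l (1.27). Reads of Rpl39l may be shared with near-identical copies, and its adjusted p was 0.053 without replicate 1.

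Beyond Grb10 and the H2b genes, the genes that the same rule, with its minimum level and without predicted-gene symbols, named as higher in WT–emiRFP differed by 1.81-fold to 2.10-fold. Cdkn2a, which encodes the cell cycle inhibitor p16 and, from another reading frame, the p53 activator ARF, was at 327, 263 and 349.9 in WT–mCherry and 629, 664 and 595 in WT–emiRFP (log2 fold change −1.01 ± 0.11, adjusted p = 6.8e-05). Stag3, a subunit of meiotic cohesin, was at 1397, 1694 and 982 against 2612, 2434 and 2476 (log2 fold change −0.89 ± 0.14, adjusted p = 0.0018). Fzd6, a Wnt receptor, was at 255, 241 and 245 against 501, 406 and 485 (log2 fold change −0.91 ± 0.11, adjusted p = 0.00021). In each of these the clones did not overlap. Fbn1, the microfibril protein fibrillin, was at 551, 481 and 488 against 906, 808 and 1112 (log2 fold change −0.89 ± 0.13, adjusted p = 0.00062). The remaining named genes were Catsperg1 (−1.07), an accessory subunit of a sperm calcium channel, the small GTPase Rab36 (−1.03), the amino acid transporter Slc7a8 (−0.98), Samd14 (−0.97) and the calcium-binding Hrc (−0.85). The libraries of the clones did not overlap in any of the 28 genes named by this rule, nor in 24.4% of all tested genes.

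Most naive pluripotency genes were higher in WT–mCherry. Of 16 tested members, 11 were higher in WT–mCherry and 0 in WT–emiRFP, all 16 log2 fold changes were positive, and their median was 0.57. Over all tested genes 7.64% were called and 48.7% were positive. Between 9 and 10 members passed when a replicate was left out. The summed level of the list was 62554 to 64358 in WT–mCherry and 44916 to 48366 in WT–emiRFP. In bulk RNA of sorted cells, fewer cells of a state and less RNA per cell cannot be told apart. Tcl1, a co-activator of Akt signalling, was at 334, 324 and 319 in WT–mCherry and 157, 155 and 152 in WT–emiRFP (log2 fold change 1.08 ± 0.09, adjusted p = 1.0e-05). Nr0b1, an orphan nuclear receptor, was at 968, 830.1 and 1050 against 516, 592 and 508 (log2 fold change 0.82 ± 0.10, adjusted p = 0.00027). Esrrb, a nuclear receptor of the naive network, was at 7608, 7359 and 7379 against 4738, 5319 and 4983 (log2 fold change 0.57 ± 0.06, adjusted p = 7.9e-05). Replicates of a clone lay close together in these 3 genes and the clones were well separated. Klf2 was more scattered, with 2644, 2436 and 3787 against 1804, 1896 and 1605 (log2 fold change 0.74 ± 0.14, adjusted p = 0.0041). The other calls were Zfp42 (0.58), Fgf4 (0.79), Prdm14 (0.78), Nr5a2 (0.75), Dppa5a (0.56), Pecam1 (0.52) and Klf4 (0.47). Prdm14 missed the threshold without replicate 1 (0.085) and without replicate 2 (0.095), and Klf4 missed it without replicate 1 (0.087) and without replicate 3 (0.057). Nanog (0.11, adjusted p = 0.33) and Tbx3 (0.06, 0.69) did not pass.

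Genes of general and later pluripotency were split. In the formative and primed list of 16 tested genes, 2 were higher in WT–mCherry and 3 in WT–emiRFP, beside 7.64% called over all tested genes, with a median log2 fold change of 0.01. Sox2, a core pluripotency and neural factor, was at 6452, 5366 and 6895 in WT–mCherry and 4009, 3928 and 4279 in WT–emiRFP (log2 fold change 0.62 ± 0.08, adjusted p = 0.00036), with no overlap. Pou5f1, which encodes Oct4, did not pass (log2 fold change 0.00 ± 0.09, adjusted p = 0.99). Fgf5, the classical marker of the primed epiblast, was at 1749, 1872 and 1449 against 2987, 3112 and 2010 (log2 fold change −0.68 ± 0.16, adjusted p = 0.017), and missed the threshold without replicate 1 (0.15) or 2 (0.093). The DNA methyltransferase cofactor Dnmt3l was higher in WT–mCherry (0.43, adjusted p = 0.0017). Dnmt3a (−0.23, 0.03), a de novo methyltransferase, and Sall2 (−0.29, 0.0084) were higher in WT–emiRFP. Both of the latter missed the threshold without replicate 1 (0.15 and 0.11).

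The calls among primitive streak genes were all higher in WT–emiRFP. Of 26 tested streak and nascent mesoderm genes, 4 (15.4%) were higher in WT–emiRFP and 0 in WT–mCherry, beside 7.64% called over all tested genes. The median log2 fold change was −0.23 and 4 of the 26 were positive. Without replicate 1, as without replicate 2, 0 passed, and without replicate 3, 7 did. With the replicate number as a block in the fit, 10 passed, all higher in WT–emiRFP. Gsc, an organizer homeobox gene, was at 67.4, 54.6 and 67.3 in WT–mCherry and 180.4, 147 and 84.0 in WT–emiRFP (log2 fold change −1.11 ± 0.25, adjusted p = 0.015). The homeobox gene Mixl1 was at 1725, 1295 and 1987 against 2557, 1968 and 2867 (log2 fold change −0.56 ± 0.16, adjusted p = 0.046), and its replicates overlapped between the clones. The Wnt ligand Wnt3 (−0.37, 0.017) and the activin antagonist Fst (−0.33, 0.018) were the other calls. T, given above for each library, did not overlap between the clones and did not pass (log2 fold change −0.34 ± 0.10, adjusted p = 0.06). Among 16 tested caudal epiblast and Cdx genes, 2 were higher in WT–emiRFP and 0 in WT–mCherry, with a median of −0.06. Wnt8a, a Wnt ligand of the posterior epiblast, was at 7682, 7597 and 8675 against 12110, 10260 and 11627 (log2 fold change −0.51 ± 0.08, adjusted p = 0.0011) and passed whichever replicate was left out, while Greb1 (−0.28, 0.029) passed in no such fit.

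Among genes that DNA methylation silences outside the germ line, all calls were higher in WT–mCherry. Of 23 listed genes 18 were tested, 10 (55.6%, beside 7.64% called over all tested genes) were higher in WT–mCherry and 0 in WT–emiRFP, and the median log2 fold change was 0.65. The calls fell to 3 without replicate 1 and to 3 without replicate 2, and 11 passed without replicate 3. Rhox6, an X-linked homeobox gene of the reproductive tract, was at 40.6, 27.9 and 35.7 in WT–mCherry and 6.10, 9.12 and 7.63 in WT–emiRFP (log2 fold change 2.16 ± 0.34, adjusted p = 0.0014). Its neighbour in the same cluster Rhox13 was at 204, 186 and 122 against 82.9, 59.8 and 43.6 (log2 fold change 1.47 ± 0.29, adjusted p = 0.0067; 0.077 without replicate 2), and Rhox5 was at 1202, 1051 and 1100 against 871, 772 and 664 (log2 fold change 0.54 ± 0.09, adjusted p = 0.003). These 3 genes showed no overlap between the clones, and Rhox5 and Rhox6 passed whichever replicate was left out. Dazl, an RNA-binding protein of germ cells, was at 256, 225 and 187 against 101, 102 and 137 (log2 fold change 0.97 ± 0.17, adjusted p = 0.0037), and Mael, a factor of the piRNA pathway, at 564, 617 and 492 against 302, 409 and 309.7 (log2 fold change 0.71 ± 0.13, adjusted p = 0.0043); both missed the threshold without replicate 1 (0.083 and 0.076). Tuba3b (1.42), Xlr3a (1.06), Xlr3b (1.03), Tex11 (0.60) and Taf7l (0.50) passed too, and none of them passed without replicate 1 or without replicate 2. Rhox and Xlr genes belong to multigene families whose reads can be shared between copies.

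Genes of the two-cell-like state, a rare state of mES cells that expresses genes of the early embryo, had the same sign throughout. All 15 tested members had positive log2 fold changes, with a median of 0.63, and 3 passed, beside 3.3% of all tested genes that were higher in WT–mCherry and 48.7% that were positive. Tmem92 was at 134, 98.0 and 86.7 in WT–mCherry and 43.9, 75.0 and 43.6 in WT–emiRFP (log2 fold change 0.96 ± 0.23, adjusted p = 0.022). Zscan4c, of a zinc finger family linked to telomere maintenance, was at 292, 247 and 204 against 119, 154 and 144 (log2 fold change 0.83 ± 0.21, adjusted p = 0.025), and Zscan4f had a log2 fold change of 0.73 (0.045). The clones did not overlap in these 3 genes. Leaving out replicates 1, 2 and 3 left 0, 1 and 3 calls. Zscan4 genes are near-identical copies, so their separate values are uncertain. In the primordial germ cell list of 10 tested genes, Prdm14 and Dazl were higher in WT–mCherry and Ifitm3 (−0.47, 0.003) in WT–emiRFP, with a median of 0.27.

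**Figure D3:**
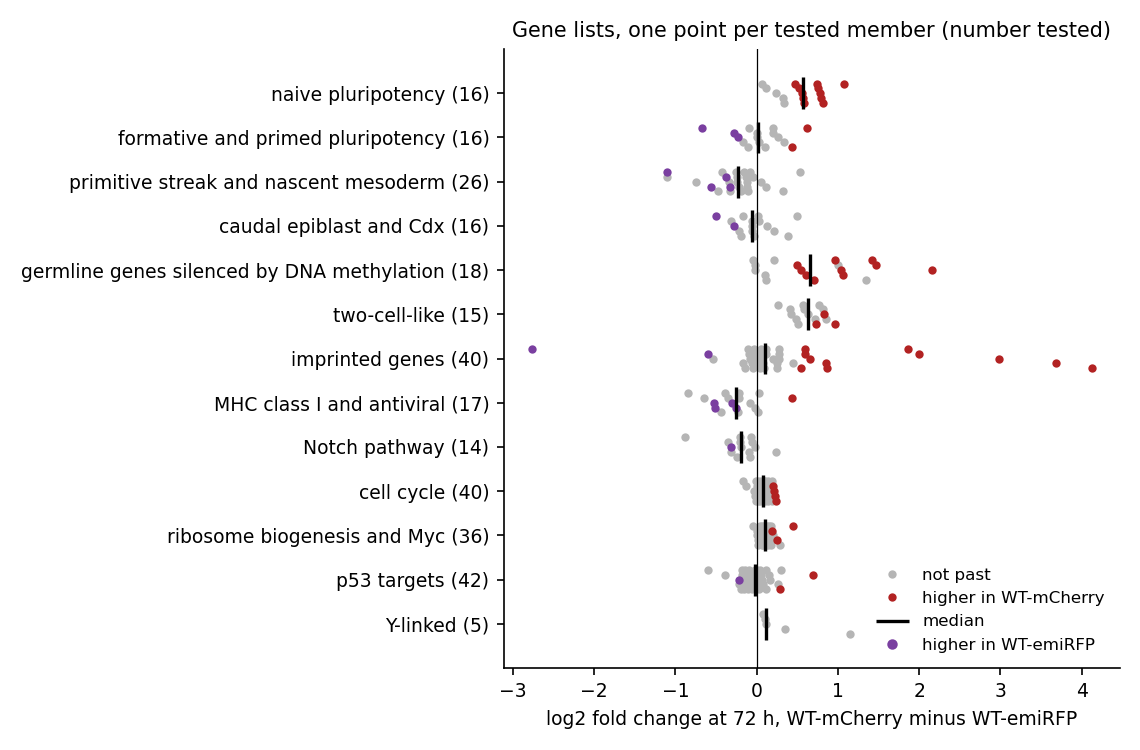
Log2 fold change at 72 h, WT–mCherry minus WT–emiRFP, of the tested members of 13 gene lists, with the number tested in brackets; each point is 1 gene and each black bar the median of the list. Red and purple points passed the test, and all points of the naive pluripotency and two-cell-like lists lie to the right of 0, whereas the imprinted list spreads from −2.77 to 4.12 around a median of 0.10.

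Signalling pathways gave scattered calls, with shares on both sides of that over all tested genes (7.64%). They were 7.14% of the Notch list, 7.14% of the YAP targets, 5.88% of the EMT and adhesion list and 11.1% of the BMP list. Larger shares were called of the Wnt targets and antagonists (13.6%) and the Wnt ligands (15.4%). The FGF and ERK list (18.2%), the Nodal pathway (18.8%) and the retinoic acid list (21.4%) had the largest. The Nodal pathway (16 tested, median −0.05) had 1 gene higher in WT–mCherry and 2 in WT–emiRFP. Its ligand Gdf3 was at 1487, 1544 and 1567 in WT–mCherry and 873, 1050 and 959 in WT–emiRFP (log2 fold change 0.67 ± 0.08, adjusted p = 0.00010). Gdf3 kept its call in every fit that left out a replicate. The feedback inhibitor Lefty1 (−0.49, 0.034) was higher in WT–emiRFP and missed the threshold without replicate 1 (0.15) and without replicate 2 (0.071). Among Wnt targets and antagonists (22 tested, 1 higher in WT–mCherry, 2 in WT–emiRFP, median −0.02), the cell cycle gene Ccnd1 was at 9433, 9406 and 9700 against 7469, 7936 and 7341 (log2 fold change 0.33 ± 0.05, adjusted p = 0.00064), and the antagonists Dkk1 (−0.41) and Nkd1 (−0.29) were higher in WT–emiRFP. Of 13 tested Wnt ligands, Wnt3 and Wnt8a passed, as given above, with a median of −0.04. In the FGF and ERK list (22 tested, 3 higher in WT–mCherry, 1 in WT–emiRFP, median −0.03), Fgf4, the receptor Fgfr2 (0.44) and the ERK target Etv5 (0.24) were higher in WT–mCherry and Fgf5 in WT–emiRFP. Of 18 tested BMP pathway genes (median −0.03), Id4 (0.80) and Bmp7 (0.33) were higher in WT–mCherry. Notch3 (−0.32, 0.0041) was the 1 call of 14 tested Notch genes, with a median of −0.19 and 1 positive member. In the retinoic acid list of 14 tested genes (median 0.03), the synthetic enzyme Aldh1a2 (0.75) and the transporter Stra6 (0.92) were higher in WT–mCherry and the retinaldehyde reductase Dhrs3 (−1.19) in WT–emiRFP. Zeb1 (0.37) was the 1 call of 17 tested EMT and adhesion genes (median −0.12), and Arhgef17 (−0.21) the 1 call of 14 tested YAP targets (median 0.02). Apart from Gdf3, Ccnd1, Fgf4 and Wnt8a, each call in these lists missed the threshold without replicate 1 or without replicate 2.

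Calls in the lineage lists went in both directions. They made up 15.4% of the tested endoderm and notochord genes, 16.7% of the neural and anterior ectoderm genes, 25.0% of the haematoendothelial genes and 4 of 20 collagens and laminins, beside 7.64% of all tested genes. In the endoderm and notochord list (13 tested, median −0.18), Gata4, a factor of endoderm and heart, was at 269, 263 and 282 in WT–mCherry and 441, 468 and 444 in WT–emiRFP (log2 fold change −0.73 ± 0.08, adjusted p = 7.9e-05). Trh, a hormone precursor, was at 24893, 24438 and 24014 against 19386, 19397 and 16982 (log2 fold change 0.40 ± 0.05, adjusted p = 0.00055). These 2 genes differed in opposite directions, each without overlap and in every fit that left out a replicate. In the neural and anterior ectoderm list (12 tested, median 0.15), Pax6 (0.77, 0.026) was higher in WT–mCherry and Zic1 (−0.84, 0.0065) in WT–emiRFP. In the haematoendothelial list (12 tested, median −0.08), Pecam1, Tek (0.52, 0.028) and Cdh5 were higher in WT–mCherry, the last at 12.9, 31.2 and 10.2 against 0, 4.05 and 5.45 normalized counts. Of 20 tested collagens and laminins (median −0.02), Col5a2 (1.00) was higher in WT–mCherry and Col4a5 (−0.59), Col6a1 (−0.72) and Lama5 (−0.25) in WT–emiRFP. Apart from Gata4, Trh and Pecam1, each of these calls missed the threshold without replicate 1 or without replicate 2.

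Genes tied to p53 and to cell death, the subject of the study's competition assays, gave calls in both directions. They made up 7.14% of the p53 targets and 3 of 15 genes of the Bcl2 family, beside 7.64% of all tested genes. Of 42 tested p53 targets, 2 were higher in WT–mCherry and 1 in WT–emiRFP, with a median log2 fold change of −0.02. Pmaip1, which encodes the pro-apoptotic BH3-only protein Noxa, was at 6001, 5914 and 5835 in WT–mCherry and 3324, 3764 and 3882 in WT–emiRFP (log2 fold change 0.69 ± 0.07, adjusted p = 2.9e-05). Its replicates lay close together, the clones did not overlap, and it passed whichever replicate was left out. The kinase Sgk1 (0.29, 0.0075) was higher in WT–mCherry and Inka2 (−0.22, 0.043) in WT–emiRFP. In the Bcl2 family of 15 tested genes (median −0.07), Pmaip1 and the anti-apoptotic Bcl2l1 (0.27, 0.015) were higher in WT–mCherry and the pro-apoptotic Bmf (−0.34, 0.0072) in WT–emiRFP. Without replicate 1, Sgk1, Inka2, Bcl2l1 and Bmf missed the threshold. Against p53KO–emiRFP, by comparison, 32 of the 42 p53 targets were higher in WT–mCherry and 4 lower, with a median of 1.86, in a contrast that called 31.4% of all tested genes.

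In growth and metabolic lists, calls made up 8.33% of the ribosome biogenesis and Myc list, 4 of 40 cell cycle genes, 12.9% of the glycolysis and hypoxia list and 3.57% of the oxidative phosphorylation list, beside 7.64% of all tested genes. Of 36 tested ribosome biogenesis and Myc genes, 35 had a positive log2 fold change, but the median was 0.10 and 3 passed: Mycn, at 6050, 5558 and 5942 in WT–mCherry and 4526, 4454 and 3908 in WT–emiRFP (log2 fold change 0.45 ± 0.07, adjusted p = 0.0018), the polyamine enzyme Odc1 (0.26) and the ribosome assembly factor Wdr43 (0.19). Mycn and Odc1 passed in every fit that left out a replicate. With the replicate number as a block in the fit, 12 of these 36 genes passed, as did 7 cell cycle and 4 oxidative phosphorylation genes. All of these were higher in WT–mCherry, and 2865 of all tested genes passed in that fit. Of 40 tested cell cycle genes, 34 were positive with a median of 0.08, and 4 passed (Orc1, Rrm2, Top2a and Kif23, all higher in WT–mCherry by 0.20 to 0.24). Without replicate 1, as without replicate 2, 0 of them passed. Glycolysis and hypoxia genes (31 tested, median 0.06) gave Ldha (0.34) higher in WT–mCherry and Ndrg1 (−0.65), Pfkfb4 (−0.38) and Aldoc (−0.34) higher in WT–emiRFP. In the oxidative phosphorylation list (28 tested, median 0.06), the mitochondrial gene mt-Nd1 was at 92995, 121530 and 103170 against 58380, 76505 and 87172 (log2 fold change 0.52 ± 0.14, adjusted p = 0.031), in the direction of the mitochondrial shares given above, whose part was not tested. The integrated stress response (20 tested, median 0.03) gave Asns (0.18) higher in WT–mCherry and Ddit4, Atf4 and Vldlr higher in WT–emiRFP. Atf4, the central transcription factor of this response, was at 10700, 10955 and 11562 against 15752, 14937 and 12729 (log2 fold change −0.39 ± 0.07, adjusted p = 0.0038; 0.082 without replicate 1 and 0.06 without replicate 2), and Ddit4, an inhibitor of mTORC1, at 15146, 14155 and 14597 against 21158, 21082 and 18169 (log2 fold change −0.46 ± 0.06, adjusted p = 0.00053). Cholesterol synthesis gave 0 calls among 24 tested genes, with a median of −0.04. Of 17 tested MHC class I and antiviral genes, the RNA sensor gene Ddx58 (0.43) was higher in WT–mCherry and Irf1 (−0.51), Tapbp (−0.52), Tap1 (−0.31) and H2-K1 (−0.25), which serve antigen presentation or its induction, were higher in WT–emiRFP, with a list median of −0.25. Without replicate 1 the Irf1 call alone remained in this list, and in the metabolic and stress lists every call but Ddit4 missed the threshold without replicate 1 or without replicate 2.

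To place each clone on the path from 48 to 96 h, sets of genes were taken by comparing the WT + WT libraries of these times. Their members rose or fell at least 2-fold with an adjusted p under 0.05. The contrast was part of the fit of all 69 libraries, so libraries of 72 h entered its estimate of the spread. Of 2474 tested genes of the rising set, 73 were higher in WT–mCherry at 72 h and 219 in WT–emiRFP, and the median log2 fold change was −0.12, with 33.3% of the set positive. Of 1776 tested genes of the falling set, 152 were higher in WT–mCherry and 76 in WT–emiRFP, with a median of 0.07 and 58.1% positive. Over all tested genes 48.7% were positive, with a median of −0.0062, and 7.64% were called, against 11.8% of the rising set and 12.8% of the falling set. The counts in the rising set were 31 and 38 without replicate 1, 37 and 73 without replicate 2, and 65 and 218 without replicate 3. Together the sets held 520 (38.4%) of the 1354 genes called at 72 h. On a scale on which the mean of the 48 h libraries is 0 and that of the 96 h libraries is 1, the position was 0.534, 0.506 and 0.590 in replicates 1, 2 and 3 of WT–mCherry and 0.604, 0.557 and 0.624 in those of WT–emiRFP. WT–mCherry was the lower clone in each number, while the ranges of the clones overlapped. The clone means were also ordered this way at 48 h (−0.0072 against 0.0072) and at 96 h (0.982 against 1.02). Of the 16 tested naive pluripotency genes, 9 belonged to the rising set, among them 6 of the 11 called, and 0 to the falling set. For the formative and primed genes, 11 of the 16 belonged to the falling set. The rising set held 22 of the 26 streak genes and 15 of the 16 caudal epiblast and Cdx genes, and the falling set 0 of either. All 15 two-cell-like genes and 10 of the 18 genes silenced by DNA methylation were in the falling set. How far the position of a clone accounts for the calls in these lists was not tested.

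**Figure D4:**
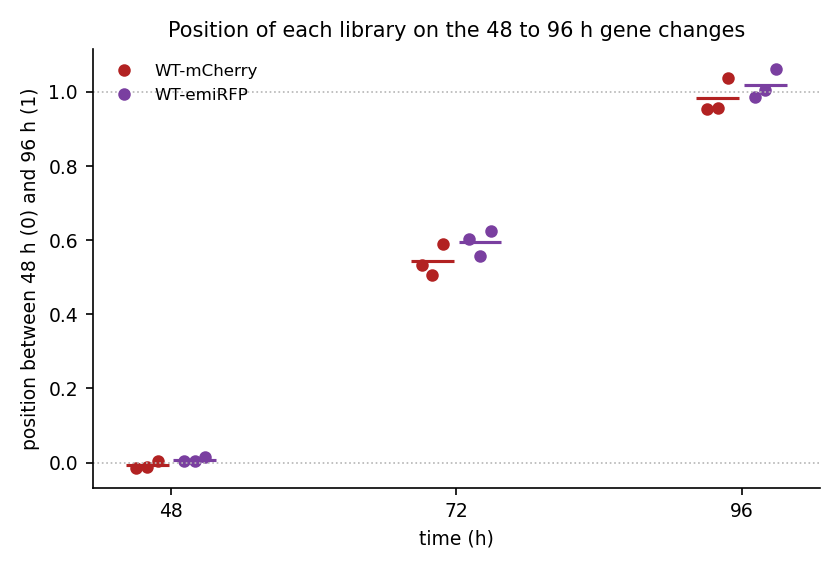
Position of each WT–mCherry (red) and WT–emiRFP (purple) library of WT + WT gastruloids on the gene changes between 48 and 96 h, with the mean of the 48 h libraries at 0 and that of the 96 h libraries at 1; horizontal bars are means of 3. At 72 h WT–mCherry libraries lie at 0.506 to 0.590 and WT–emiRFP libraries at 0.557 to 0.624, with overlapping ranges.

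The same clones were also compared in mES cells at 0 h and in WT + WT gastruloids at 48, 96, 120 and 144 h, in libraries that the 72 h comparison did not use. At 0 h the test called 2033 genes (11.1%), and 1760, 291 and 1165 when replicates 1, 2 and 3 were left out in turn. In 48 h gastruloids it called 1572 (8.9%), and 520, 532 and 845 with a replicate left out. The 96 h libraries gave 395 calls (2.15%), with 93, 94 and 194 left, and those of 120 h gave 231 (1.22%), with 38, 235 and 43 left. The 144 h libraries gave 4616 (23.8%), with 2376, 3378 and 2232 left. Of the genes called at 72 h, 604 were also called at 48 h in the same direction, which is 45.0% of the 72 h calls and 39.6% of the 48 h calls, and 0 in the opposite direction. At 96 h 205 were shared in direction (15.2% of the 72 h calls and 52.6% of the 96 h calls) and 1 was opposite. The calls shared with 0 h were 298 in the same direction (22.4 and 16.1%) and 52 in the opposite one, and those shared with 120 h were 65 (4.81 and 29.4%) and 14. At 144 h 210 were called in the same direction (15.5 and 4.80%) and 366 in the opposite one. Of the 72 h calls, 361 (26.7%) were called at no other time. Of 16307 genes tested at all 6 times, 40 were called at all of them in one direction, 22 higher in WT–mCherry and 18 higher in WT–emiRFP, and 12 of these 40 were in the imprinted list.

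These 12 imprinted genes already differed in mES cells. H19 averaged 17062 against 1712 normalized counts in WT–mCherry and WT–emiRFP at 0 h, and its log2 fold change was 3.32, 3.50, 4.51, 2.82 and 2.71 at 0, 48, 96, 120 and 144 h. Mest, at 7359 against 378 at 0 h, had log2 fold changes of 4.29, 3.94, 3.52, 2.54 and 2.91 at these times, and Plagl1 had 2.59, 2.39, 2.06, 2.08 and 2.45. For all 3 genes the sign was the same at each time. Grb10 was lower in WT–mCherry at each time, by −2.35, −2.01, −3.79, −3.84 and −2.86 on the log2 scale, and reached 1570 against 21615 at 96 h. Impact, an imprinted gene on chromosome 18 that was not in the list and was picked after its values were seen, averaged 25121 against 12929 at 72 h (log2 fold change 0.96 ± 0.07, adjusted p = 2.7e-06) and was also called at all 6 times.

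Naive pluripotency genes gave other counts at other times, but the share called over all genes also ranged from 1.22% at 120 h to 23.8% at 144 h, so counts are not comparable between times. The list gave 11 genes higher in WT–mCherry and 0 in WT–emiRFP at 48 h (median log2 fold change 0.41), as at 72 h, but 1 and 3 in mES cells (−0.13). In later gastruloids the counts were 0 and 0 (median 0.18), 0 and 3 (−0.32) and 0 and 15 (−0.53) for 96, 120 and 144 h. Two-cell-like genes gave 13 higher in WT–mCherry and 0 in WT–emiRFP in mES cells (median 1.11) and 15 and 0 in 48 h gastruloids (1.36), against 3 and 0 at 72 h. By 96 h, 0 of them passed. Named genes outside the imprinted class also varied. Abcc6 was higher in WT–mCherry at each time, with log2 fold changes of 2.96, 2.95, 1.82, 2.27 and 1.84 at 0, 48, 96, 120 and 144 h. Rab36, lower in WT–mCherry at 72 h, had −1.26, −1.14, −0.78, −0.11 and 0.60. H2bc14 had −10.36, −7.31, −6.91, −5.96 and −6.34. A test of the change in the clone difference itself called 4 of 21121 genes between 48 and 72 h (0.0189%) and 5 between 72 and 96 h (0.0237%), where 1016 and 1169 genes had an unadjusted p under 0.05. With 1 replicate left out, 0 genes passed in the first contrast and between 0 and 1 in the second. With the replicate number as a block in the fit, 102 and 206 genes passed.

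**Figure D5:**
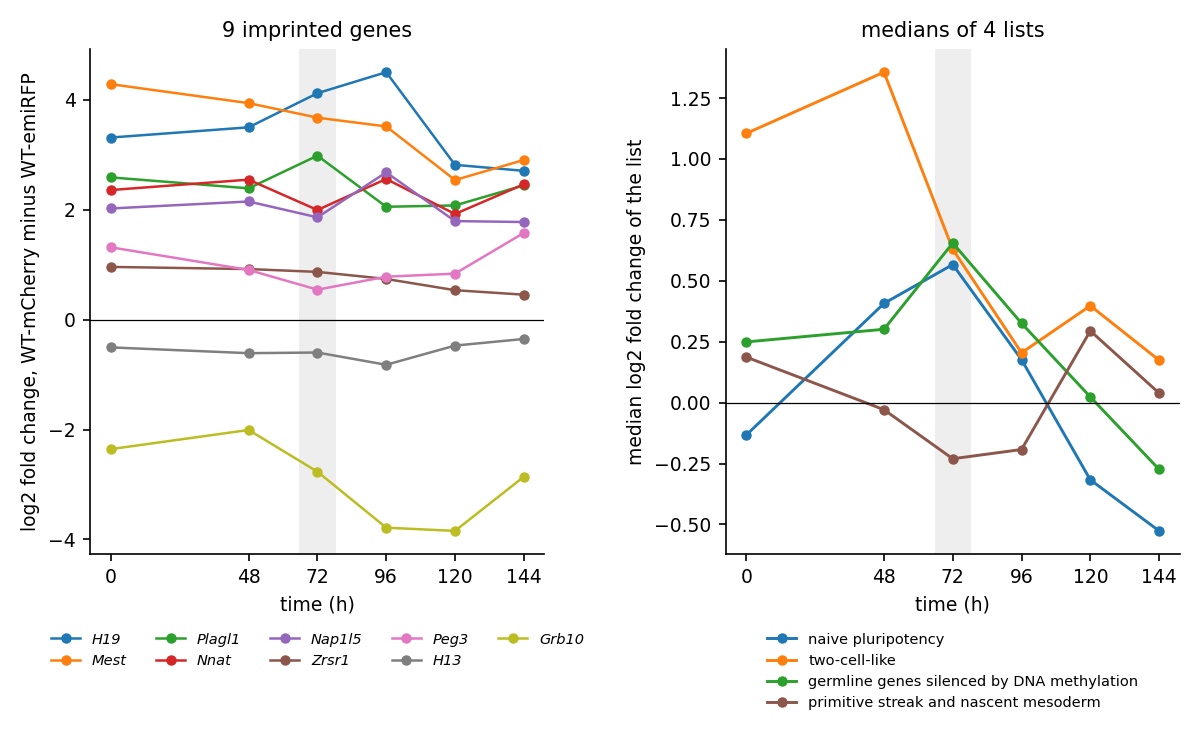
Left, log2 fold change (WT–mCherry minus WT–emiRFP) of 9 imprinted genes at 0, 48, 72, 96, 120 and 144 h; right, the median log2 fold change of 4 gene lists at the same times, with 72 h shaded grey. Each imprinted gene stays on its side of 0 at all 6 times, while the naive pluripotency median goes from −0.13 at 0 h through 0.57 at 72 h to −0.53 at 144 h.

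The 6 libraries of WT + p53KO gastruloids at 72 h compared the same WT–mCherry clone with the daughter of WT–emiRFP, and shared no library with the comparison above. This contrast holds together the clone difference, the loss of p53 and the growth of WT–mCherry cells beside p53KO neighbours. It called 5554 genes (31.4%), and between 3235 (without replicate 1) and 3739 (without replicate 3) when a replicate was left out. Of the 1354 genes called between the WT clones, 527 (38.9%) were called here in the same direction, which is 9.49% of the p53KO calls, and 211 in the opposite one. Of the 13 imprinted genes called between the WT clones, 12 were called in the same direction. The log2 fold changes against p53KO–emiRFP were 4.60 for H19, 4.00 for Mest, 3.05 for Plagl1, 1.79 for Nnat, 2.83 for Nap1l5 and −3.17 for Grb10. The exception was Sfmbt2, at −0.89. H2bc14 (−6.48) and H2bc3 (−5.11) were again far lower in WT–mCherry, while Abcc6 (3.28) and Nxf3 (3.14) were higher. Nlrp9b (−0.10) and Hrc (0.03) were close to 0 in this contrast. Naive pluripotency genes gave 10 higher and 1 lower in WT–mCherry, with a median of 0.42, and all 15 two-cell-like genes were higher, with a median of 2.23.

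Called genes lay on every autosome and on the X chromosome. Autosomes had median log2 fold changes between −0.018 and 0.012 among expressed genes, and between 7.42 and 10.7% of their genes were called. On the X chromosome, 25 of 441 genes were higher in WT–mCherry and 28 in WT–emiRFP (a larger share called than on any autosome), with a median of 0.0079. Within 500 kb of the 28 named genes, 497 genes were tested and 49 of them were called (9.86%, beside 7.64% of all tested genes). These include the named H2bc3 and H2bc7, each of which lies within this distance of the other. Around H19, Plagl1 and Nnat, 0 of 14, 0 of 9 and 0 of 16 flanking genes were called, and around Mest 1 of 11. The highest shares were around Nefm (2 of 5), Grb10 (2 of 6, both higher in WT–mCherry), H2-M6-ps (4 of 12) and Pnma5 (4 of 17).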

How the data were processed

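Polyadenylated RNA of sorted cells was sequenced in stranded libraries. Per the labels and the study's methods, reads were trimmed with Trim Galore 0.6.7 and aligned with STAR 2.7.11b to GRCm38.p6, and the deposited table gives the authors' uniquely mapped read counts per gene, not normalized. Here the counts were divided by median-of-ratios size factors over 69 libraries. The 12 libraries of 72 h (4 groups) were fitted with edgeR 4.0.16 (R 4.3.3), with genes passing filterByExpr, a quasi-likelihood test and Benjamini-Hochberg adjustment at 0.05. Other times were fitted alike, and changes between times in 1 fit of 69 libraries. Scripts were tested on simulated data. Replicates are independent experiments per the study. The p-values rest on a spread pooled over all libraries in a fit. At 72 h these were 12 libraries, 3 in each of 4 groups, so libraries of WT + p53KO gastruloids entered it.

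Named genes were the 14 with the largest fold change each way among called genes whose mean log2 CPM reached 1 and that had one direction in all 3 comparisons of same-numbered libraries, without predicted-gene symbols, and up to 4 members of each list with the largest absolute fold change. Other list members that passed were named after their values were seen. The members and the 33 lists were chosen with earlier results of these data known. Positions are from GENCODE for GRCm38 (older symbols through RefSeq) and promoters from RefSeq. Alternatives were TMM, DESeq2 1.42.0, no low-count filter, a fold minimum of 2, fewer or more libraries, a replicate block and leaving out each replicate.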

Additional observations from a re-analysis of the deposited data

Results flagged for a closer look

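For 9 genes, 4 against 48 h and 5 against 96 h, the difference between WT–mCherry and WT–emiRFP itself differed between 72 h and a neighbouring time, by a test of that change; 7 of them reached a mean log2 CPM of 1. Between 48 and 72 h, Naa11 went from 577 against 459 normalized counts (WT–mCherry against WT–emiRFP, mean of 3) to 254 against 108, a change of 0.89 ± 0.17 (SE) in the log2 difference (adjusted p = 0.016). Dysf went from 499 against 426 to 247 against 380 (−0.84 ± 0.16, adjusted p = 0.012), Vangl1 from 659 against 430 to 1725 against 1733 (−0.62 ± 0.11, adjusted p = 0.0086) and Kit from 1131 against 729 to 2422 against 2248 (−0.53 ± 0.09, adjusted p = 0.0086). Relative to 96 h, H2-M6-ps was at 154 against 57.5 at 72 h and 243 against 201 at 96 h (1.15 ± 0.20, adjusted p = 0.0077), Dlc1 at 1914 against 1353 and 6622 against 7536 (0.69 ± 0.14, adjusted p = 0.045), and Zcchc12 at 240.1 against 330.2 and 154 against 118 (−0.84 ± 0.17, adjusted p = 0.038). With 1 replicate left out, H2-M6-ps passed without replicate 3 (adjusted p = 0.016) and the other 6 of these 7 genes passed in no such fit. The remaining 2, named after their values were seen, were at low levels: Adgrf5 was at 20.4 against 3.59 at 72 h and 36.5 against 34.7 at 96 h (change of 2.37, adjusted p = 0.016), and Col17a1 at 38.5 against 23.5 and 109 against 149 (1.16, adjusted p = 0.037).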

How the results depend on the processing

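The balance of directions turned in some fits. At 72 h, 584 genes were higher in WT–mCherry and 770 in WT–emiRFP, but 285 and 268 with 6 libraries, 181 and 158 without replicate 1, and 259 and 246 without replicate 2. At 48 h the numbers were 832 and 740, and 788 and 824 with TMM. At 120 h they were 98 and 133, and 1052 and 988 with the replicate block. With the 2-fold minimum they went from 829 and 1204 to 338 and 128 at 0 h and from 164 and 231 to 29 and 25 at 96 h. Against p53KO–emiRFP they were 2891 and 2663, but 3564 and 3784 with the replicate block and 3083 and 3134 with 6 libraries. At 72 h, 1369 genes passed with TMM normalization, 1690 without the low-count filter, 1678 with DESeq2 and 1258 with all 69 libraries in 1 fit, against 1354. Larger moves came from a 2-fold minimum (128 genes), from fitting the 6 compared libraries alone (553) and from leaving out a replicate (339 to 1308); fewer samples and a stricter rule were the construction of these settings. With the 2-fold minimum, 466, 212, 54, 38 and 683 genes passed at 0, 48, 96, 120 and 144 h, 1045 against p53KO–emiRFP, and 0 and 3 in the changes from 48 and from 96 h. With a replicate left out, the ranges were 291 to 1760, 520 to 845, 93 to 194, 38 to 235 and 2232 to 3378 genes for these 5 times, 3235 to 3739 against p53KO–emiRFP, 0 to 0 in the change from 48 h and 0 to 1 in that from 96 h. At 96 and 120 h, 1045 and 844 genes passed without the filter, 782 and 702 with DESeq2, and 164 and 66 with 6 libraries. The changes from 48 and 96 h gave 65 and 146 without the filter, 17 and 26 with DESeq2, and 2 and 0 with the 12 libraries of each contrast. The cause of these moves was not tested. Of 196 alternative fits of the 28 named genes, 2 lost the threshold: Rpl39l without replicate 1 (adjusted p = 0.053) and Rhox13 without replicate 2 (0.077). These genes were picked from the same libraries for their large fold changes, so that choice favoured keeping the threshold.

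Libraries of the clones share replicate numbers, but the labels do not say what a number marks. Deviations from the group means of same-numbered libraries at 72 h correlated at 0.0559, 0.427 and 0.182 for numbers 1, 2 and 3 over 13449 genes, and 5 of the 6 libraries correlated best with their own number. The main tests did not use the numbers as a block, since the correlation for number 1 was near 0. The study states that its RNA samples came from 3 experiments separated in time, so same-numbered libraries may be paired. In that case the spread in the main tests also holds differences between experiments. The rule for named genes did ask for 1 direction in all 3 same-numbered comparisons. With the replicate block, 10 of the 26 streak genes were higher in WT–emiRFP and 0 in WT–mCherry, and 2865 genes passed at 72 h, and 3179, 5098, 2927 and 2040 for 0, 48, 96 and 120 h, and 102 and 206 in the changes from 48 and 96 h.

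Genes of low level, such as Rhox6, Nap1l5 and Cdh5, rest on few reads. Sorted purity, the parental copies and DNA methylation were not measured in these libraries.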
